A study of Mus musculus with 18 samples.

Results

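The major urinary protein genes examined here were Mup1, Mup3, Mup7, Mup20 and Mup21 of the mouse. They were taken as the rows of the gene count table whose identifiers carry these 5 symbols, 5 of 53379 genes in the table. The 5 were chosen by their counts in the liver libraries of these same mice, BM against BMT, so the liver values of these 5 genes are given below as a description, without a test. All libraries came from female BALB/cJ mice, lethally irradiated at 6 to 8 weeks of age and given 10000000 bone marrow cells. Mice of the BM group received marrow alone, and mice of the BMT group received the same number of marrow cells with 1000000 T cells, a design used to model graft-versus-host disease, in which donor T cells attack host tissue. The irradiation and the marrow were shared by both groups, and the labels do not give the donor strain. Bulk liver and isolated intestinal epithelial cells were collected on day 7, with 3 libraries for each of 2 treatments and 3 tissues, 18 in all. The titles call the epithelial libraries coded LI small intestine and those coded SI large intestine, so these are named by code. Mouse numbers in the sample descriptions repeat across tissues, which gives 6 mice, and no untreated mice were analysed here.

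Major urinary proteins are small secreted carriers of the lipocalin family. Hepatocytes release them into the blood, they pass into urine, and there they bind volatile pheromones and release them slowly. Mouse liver is their main source, males make far more than females, and growth hormone acting through its receptor, the kinase Jak2 and the factor Stat5b is the best known control, together with androgens, thyroid hormone and glucocorticoids. The Mup20 protein is darcin, itself a male pheromone that attracts females.

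The genes lie in an array of near-identical copies on chromosome 4, and the reads of one copy can match another, so the sequences come first. GENCODE M21 (GRCm38) lists 22 Mup genes and 27 Mup pseudogenes. Of these 49, 48 fall between 59956804 and 62150863 of chromosome 4. All 5 genes are on the minus strand. Mup7 (ENSMUSG00000073842.10) spans chr4:60066469-60070475 and Mup1 (ENSMUSG00000078683.9) chr4:60498012-60501960, both inside the run of similar copies. Mup20 (ENSMUSG00000078672.2) at chr4:62050234-62054158, Mup3 (ENSMUSG00000066154.11) at chr4:62083476-62087342 and Mup21 (ENSMUSG00000066153.2) at chr4:62147932-62150863 are the last 3 genes of the array. The following 100 bases of coding sequence, which span the junction of exons 1 and 2, show how close the copies are. They were read from the GENCODE transcripts, each is the coding strand written 5′ to 3′, and capitals mark bases that differ from Mup1. Mup12, a gene of the array without counts here, is included as the nearest copy of both Mup1 and Mup7.
Mup1 (chr4:60501400-60501837): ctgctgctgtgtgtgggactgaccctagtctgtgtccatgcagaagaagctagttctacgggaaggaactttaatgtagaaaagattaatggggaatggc
Mup12 (chr4:60740766-60741203): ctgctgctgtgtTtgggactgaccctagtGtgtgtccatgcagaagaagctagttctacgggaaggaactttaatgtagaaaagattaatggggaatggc
Mup7 (chr4:60069851-60070288): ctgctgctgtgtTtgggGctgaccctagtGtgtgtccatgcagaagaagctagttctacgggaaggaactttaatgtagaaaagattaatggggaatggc
Mup20 (chr4:62053598-62054034): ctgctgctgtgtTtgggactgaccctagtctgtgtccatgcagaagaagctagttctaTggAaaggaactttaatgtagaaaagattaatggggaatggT
Mup3 (chr4:62086918-62087207): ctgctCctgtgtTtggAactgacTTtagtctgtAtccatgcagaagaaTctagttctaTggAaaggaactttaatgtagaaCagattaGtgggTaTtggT
Mup21 (chr4:62150313-62150737): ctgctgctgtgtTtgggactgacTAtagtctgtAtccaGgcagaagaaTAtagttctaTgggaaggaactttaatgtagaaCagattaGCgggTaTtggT

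In this stretch Mup12 differs from Mup1 at 2 bases, Mup7 at 3, Mup20 at 4, and Mup3 and Mup21 at 14 each. Over the whole coding sequence Mup1 and Mup7 were 98.9% identical, with 6 differing positions, and Mup1 was 99.6% identical to Mup12. Mup3 and Mup21 were 94.8% identical to each other, and Mup3 shared 87.1% with Mup20 and 82.8% with Mup1. In all, 16 of the 22 genes had another Mup gene at 99% coding identity or more, and Mup3, Mup20 and Mup21 were not among them.

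These differences affect how much of each transcript a read can be assigned to. For each gene the 100-base windows (the read length) of its principal transcript were searched for in the GENCODE transcripts of every other gene. The libraries were paired-end and aligned to the genome, whereas these are single windows searched in transcripts only. The shares are therefore a guide to what the counts can show, not an exact limit. Unique windows made up 97.1% of Mup3, 95.5% of Mup21 and 61.2% of Mup20, but only 29.9% of Mup1 and 12.9% of Mup7. The 17 other Mup genes had a median of 16.5%, from 0% in Mup19 and Mup22 to 100% in Mup4 and Mup6. The sources used here do not say how reads that match several copies were counted, and the reference genome is from C57BL/6J, not BALB/cJ. A count of 0 for a gene with few unique windows therefore says only that no read was assigned to that copy.

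**Figure D1:**
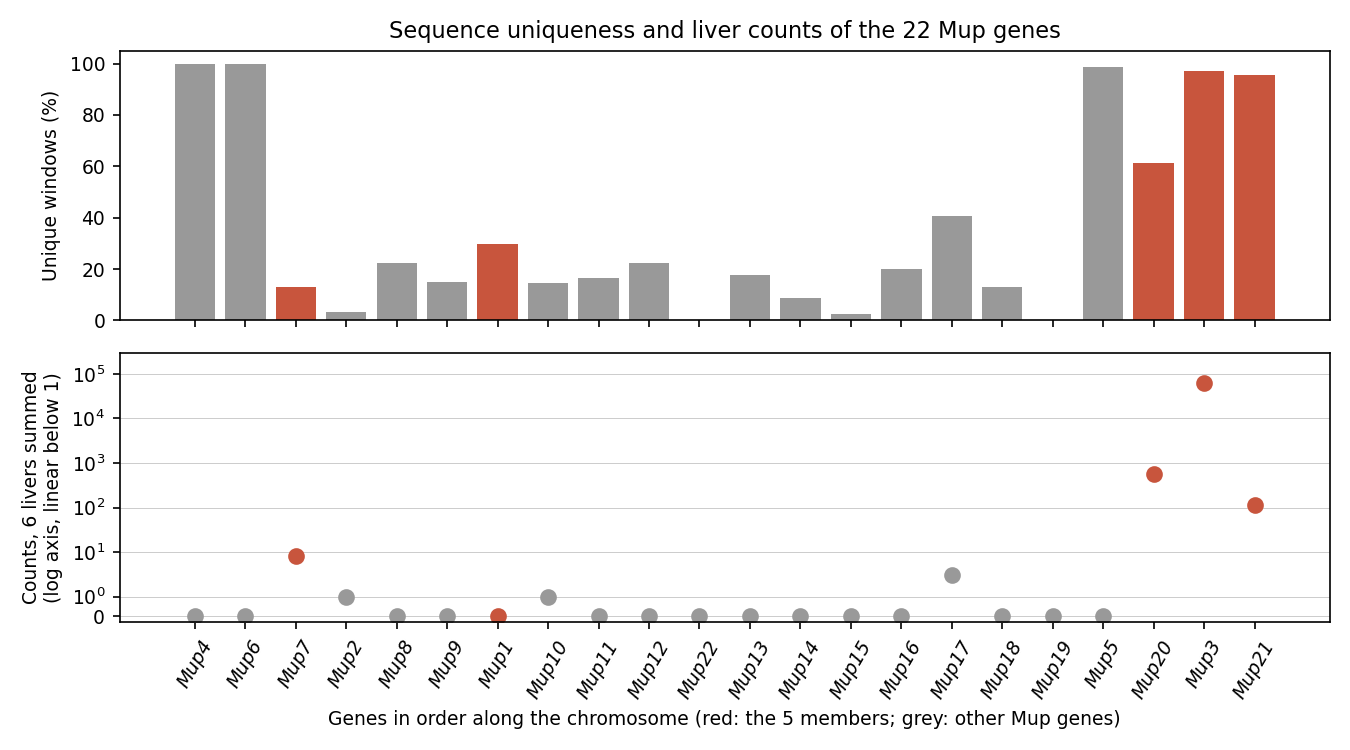
The upper panel gives, for each of the 22 Mup genes in their order along chromosome 4, the percent of 100-base windows found in no other transcript, and the lower panel its counts summed over the 6 livers on a log axis that is linear below 1. Mup3, Mup20 and Mup21 are more than 50% unique and hold 62464, 559 and 114 counts, while Mup4, Mup5 and Mup6 are 98.7 to 100% unique and hold 0.

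Each library held 18845483 to 25610937 counts, and the 6 livers 21196528 to 24685933, so that 3 counts, the limit that a count of 0 allows, correspond to 0.117 to 0.159 CPM (counts per 1000000). This limit and all counting intervals below cover counting error only. In liver, edgeR tested 14134 genes and called 1055 higher and 473 lower in BMT at an adjusted p of 0.05. On library sizes alone, without the trimmed mean (TMM) scaling, the split was 812 higher and 1183 lower, and the median log2 fold change of all genes moved from -0.02 to -0.20. In markers of other cells, 10 of 10 T cell genes were higher (summed level 3.53 to 6.62 CPM in BM and 59.4 to 62.7 in BMT), as were 10 of 10 neutrophil genes (13.1 to 18.2 and 141 to 599 CPM). Of 5 erythroid markers tested, 4 were lower (90.8 to 121 and 9.82 to 37.2 CPM). Of 8 hepatocyte markers, 2 were higher and none lower, and their summed levels overlapped (110130 to 178434 CPM in BM and 128318 to 146402 in BMT). Of 8 monocyte and macrophage markers, 4 were higher and none lower (184 to 235 and 313 to 366 CPM). Of 5 endothelial markers, 3 were higher and none lower (111 to 134 and 129 to 157 CPM). None of 4 stellate and none of 4 cholangiocyte markers was called, and no B cell marker was tested. The 6 intestinal epithelial markers summed to 7.05 to 11.4 CPM in BM and 5.01 to 18.5 in BMT, with 2 of them, Cdx1 and Cdx2, at 0 in every liver. Mitochondrial genes took 4.22% to 5.26% of the counts of the BM livers and 2.77% to 3.08% of those of the BMT livers, without overlap. The part of these other cells and of the mitochondrial share in the liver results was not tested.

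Mup3 supplied nearly all Mup counts in these female livers and was far lower after marrow with T cells. It stood at 1597, 617 and 550 CPM in BM replicates 1 to 3, and at 35.2, 10.8 and 31.7 CPM in BMT replicates 1 to 3. These are 35303, 13568 and 11791 counts against 864, 266 and 672. The groups did not overlap: BM replicate 1 was the highest library, BMT replicate 2 the lowest, and the lowest BM liver lay 15.6-fold above the highest BMT liver. The means were 921 ± 587 CPM (SD, n = 3) and 25.9 ± 13.2 CPM (SD, n = 3), a level 35.6-fold lower in BMT. The fitted log2 fold change was -4.99 ± 0.65 (standard error), the fourth largest fall among the genes tested, and it lay between -5.36 and -4.29 when each of the 6 livers was left out in turn. The 4 livers sequenced in lane 2 alone gave -4.93. Ranked by CPM per kilobase of exon, Mup3 was gene 34, 86 and 94 of the BM livers and gene 1048, 2873 and 1270 of the BMT livers. In bulk tissue, fewer hepatocytes and less Mup3 RNA in each hepatocyte cannot be told apart; albumin, also made by hepatocytes, is given below for the same libraries.

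Mup20, the darcin gene, was expressed far more weakly and was lower in BMT by a smaller factor. Its levels were 8.60, 7.50 and 4.19 CPM in the BM livers and 1.79, 1.42 and 1.65 CPM in the BMT livers, from 190, 165 and 90 counts against 44, 35 and 35. All BM livers lay above all BMT livers. The mean level was 4.17-fold lower in BMT, with a fitted log2 fold change of -1.90 ± 0.34 (standard error) and of -2.09 in lane 2 alone. Without each liver in turn it lay between -2.19 and -1.66.

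Mup21, at the end of the array and the closest relative of Mup3 in sequence, did not separate the groups. Its levels were 1.04, 0.546 and 1.17 CPM in the BM livers and 0.815, 0.689 and 0.802 CPM in the BMT livers. The BMT libraries fell inside the range of the BM libraries. The fitted log2 fold change was -0.07 ± 0.35 (standard error), and lane 2 alone gave 0.15, so that its sign depended on the libraries used. It rests on 60 counts in the 3 BM livers and 54 in the 3 BMT livers. Whether the fold changes of Mup3 and Mup21 differ was not tested, because both genes were chosen for these liver values.

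Mup7 and Mup1 were at the floor of the measurement. Mup7 had 3, 4 and 0 counts in the BM livers and 0, 1 and 0 in the BMT livers, a BM to BMT ratio of 7.52 with a 95% counting interval (exact, on the split of the counts) of 0.966 to 339. Mup1 had 0 counts in all 18 libraries. Neither passed the low-count filter, so 3 of the 5 genes had a fitted fold change. In 2 of the 5, Mup3 and Mup20, every BM liver exceeded every BMT liver, an order that 28.0% of the genes tested in liver also showed on CPM.

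**Figure D2:**
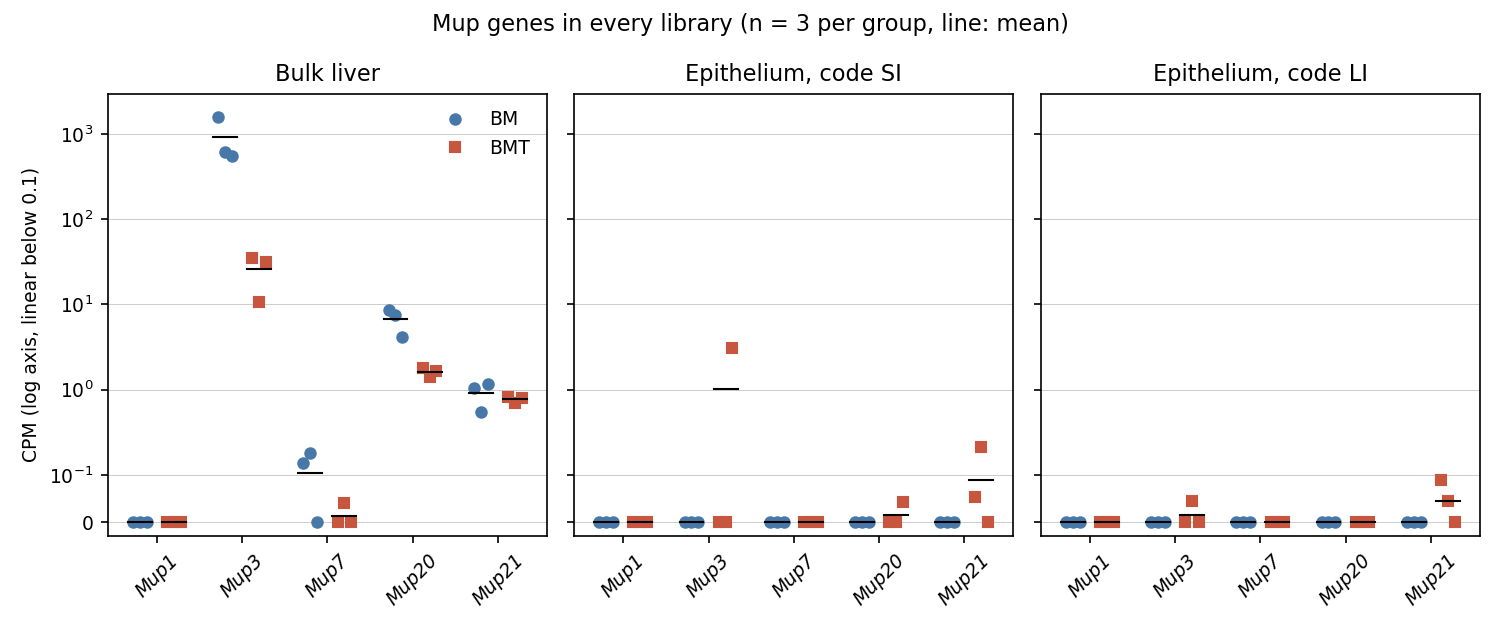
CPM of the 5 genes in each of the 18 libraries, on a log axis that is linear below 0.1, with BM as blue circles, BMT as red squares and the mean of 3 libraries as a line. Mup3 separates the liver groups most (550 to 1597 against 10.8 to 35.2 CPM), Mup21 overlaps, and in the epithelium only 1 library exceeds 1 CPM.

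Levels of the 5 genes are compared here per length of exon, which does not correct for reads that match several copies. Unique windows made up 97.1% of Mup3 and 95.5% of Mup21, but 61.2% of Mup20 and 12.9% of Mup7. Whether the values of Mup20 and Mup7 are too low for this reason was not tested. In BM livers Mup3 averaged 863 CPM per kilobase of exon, Mup20 7.29, Mup21 1.35 and Mup7 0.102. The order Mup3, Mup20, Mup21 held in the means of the BMT livers too, at 24.2, 1.75 and 1.14 CPM per kilobase, with Mup20 and Mup21 closer together. Mup3 made up 98.6% to 99.4% of all Mup counts in the BM livers and 83.4% to 93.1% in the BMT livers. Counts assigned to all Mup genes and pseudogenes together took 0.0555% to 0.161% of a BM liver library and 0.00129% to 0.00378% of a BMT liver library. The share of Mup3 and the family total both rest on assigned counts, and 16 of the 22 genes were below 50% unique windows. Reads that match several copies may be missing from both.

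The rest of the family was close to silent in the counts. Of the 17 other Mup genes, 14 had 0 counts in all 18 libraries, and Mup2, Mup10 and Mup17 had 1, 1 and 3 counts, all in BM livers. Mup4, Mup5 and Mup6 are among the 14, although 98.7% to 100% of their windows are unique. Of the 27 pseudogenes, 25 had 0 counts in the livers. The exception with more than 1 count was Mup-ps22, which lies outside the array on chromosome 11 (chr11:55123695-55123937) and had 21 counts in the 3 BM livers and 0 in the 3 BMT livers. It did not pass the low-count filter, and its values are singled out here after they were seen.

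One gene inside the array that is not a Mup gene was also lower in BMT. Gm12909 (ENSMUSG00000085404.1, chr4:62088288-62090524, plus strand), annotated by GENCODE as an antisense transcript, begins 946 bases upstream of Mup3 and runs away from it, without overlapping it. It was singled out after its values were seen. It stood at 10.6, 3.14 and 8.81 CPM in the BM livers and at 0.0408, 0 and 0.0472 CPM in the BMT livers, 492 counts against 2. The groups are far apart, and the count ratio was 264 with a 95% counting interval of 72.8 to 2188. Its log2 fold change of -7.62 ± 0.77 (standard error, edgeR adjusted p = 0.00212) was the largest fall of all genes tested in liver, and its adjusted p ranged from 1.62e-10 to 0.0172 over the 13 alternative analyses. All of its 100-base windows were unique, it had 0 counts in all 12 epithelial libraries, and the other 5 non-Mup genes inside the array had 0 counts in the livers.

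The sequences upstream of Mup3 and Mup21 are shown because these close relatives in coding sequence stood at unlike levels in liver. Whether their fold changes differ, and whether these sequences bear on their levels, was not tested. Both are RefSeq sequence of GRCm38.p6 on the minus strand, written 5′ to 3′ and ending at the base before the GENCODE start of the gene, and capitals mark bases that differ between them, gaps included.
Mup3 (chr4:62087343-62087567): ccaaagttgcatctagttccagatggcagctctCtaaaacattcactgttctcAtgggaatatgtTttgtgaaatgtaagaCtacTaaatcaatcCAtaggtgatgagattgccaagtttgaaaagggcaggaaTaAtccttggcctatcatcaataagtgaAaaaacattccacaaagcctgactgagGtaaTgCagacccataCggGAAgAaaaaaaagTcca
Mup21 (chr4:62150864-62151091): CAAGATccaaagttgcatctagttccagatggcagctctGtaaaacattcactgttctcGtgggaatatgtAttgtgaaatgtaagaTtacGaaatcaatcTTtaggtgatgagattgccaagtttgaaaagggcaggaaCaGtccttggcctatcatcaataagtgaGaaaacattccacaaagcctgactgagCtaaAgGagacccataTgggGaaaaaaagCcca

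Over the 250 bases upstream of the RefSeq starts the pair was 89.1% identical, with 16 substitutions and 12 gap positions in the alignment. Of the 5 genes, Mup3, Mup7 and Mup21 have an entry in this promoter table, and Mup1 and Mup20 have none. The Mup7 window shared 43.2% with that of Mup3. The Stat5 motif TTCNNNGAA, searched on both strands of those 250 bases, occurred in 0 of the 14 Mup genes with an entry and in 7.02% of 32851 promoters. The TATA motif TATATAA, which does not overlap it, occurred on either strand in 11 of the 14 and in 3.04% of all promoters. In Mup3 and Mup21 it began at -11 and -8 from the RefSeq start. Those bases lie inside the GENCODE gene and are not in the sequences printed above. The 14 genes are relatives, so their windows are not independent cases, and only those of Mup3, Mup7 and Mup21 were compared. A match is a description of letters, and the absence of a match says nothing of whether Stat5 binds near these genes.

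Of 110 genes on 9 lists of Mup control, related liver functions and other lipocalins, 99 were tested in liver, 19 were higher and 13 lower in BMT, against 7.46% called higher and 3.35% called lower among all genes. Those shares, and the median log2 fold change of -0.02 over all genes tested, are the background for each list below. The 13 lower calls became 6 without BM replicate 2, 20 without BM replicate 3, 7 without BMT replicate 1 and 3 without BMT replicate 2. The lists were drawn up with earlier results of these data known. Of the 12 genes of growth hormone receptor signalling, 1 fell, 1 rose and 10 were not called, with a median log2 fold change of 0.25. The gene that fell was Ghr, the growth hormone receptor itself, at 373, 315 and 217 CPM in the BM livers and 124, 114 and 127 CPM in the BMT livers. No BMT liver reached the lowest BM liver, as for 28.0% of the genes tested. The log2 fold change was -1.15 ± 0.24 (edgeR adjusted p = 0.0224). That call was lost without BM replicate 2 (0.0821) or without BMT replicate 1 (0.0701), replicate 2 (0.106) or replicate 3 (0.0787), and the adjusted p ranged from 0.000158 to 0.106 over 13 alternatives. Socs3, a feedback inhibitor of cytokine and growth hormone receptors, rose from 7.77 ± 1.44 to 21.9 ± 5.14 CPM (SD, n = 3, edgeR adjusted p = 0.00539).

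The kinase and the transcription factors downstream of the receptor were not called. Jak2 averaged 21.5 and 16.7 CPM in the BM and BMT livers (ranges 20.5 to 22.9 and 15.1 to 18.1). Stat5b averaged 48.2 and 36.8 CPM (40.3 to 61.6 and 33.5 to 39.5). Stat5a averaged 9.71 and 12.0 CPM (9.23 to 10.5 and 10.1 to 13.5). For Jak2 and Stat5b every BM liver lay above every BMT liver in CPM, as for 28.0% of the genes tested. Socs2 and Cish, textbook Stat5 targets, had log2 fold changes of 0.17 ± 0.54 and 1.00 ± 0.52, and Bcl6, a repressor of Stat5 targets, 0.23 ± 0.41. Of these, Stat5a (0.0326) and Cish (0.0404) passed only when all 18 libraries were fitted together, and Jak2, Stat5b, Socs2 and Bcl6 did not pass in any of the 13 alternatives, edgeR and DESeq2 included. The groups overlapped for Socs2 (4.94 to 25.7 CPM in the BM livers, 11.5 to 19.9 in the BMT livers) and for Cish (3.21 to 18.5 and 14.1 to 24.7 CPM).

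In the insulin-like growth factor axis, whose hepatic output depends on growth hormone, 1 of 9 genes tested fell and none rose, with a median of 0.33. Igfals, the liver protein that stabilises circulating Igf1, stood at 101, 104 and 110 CPM in the BM livers and 40.8, 36.5 and 62.2 CPM in the BMT livers. All BM livers lay above all BMT livers, as for 28.0% of the genes tested, with a log2 fold change of -1.003 ± 0.184 (edgeR adjusted p = 0.0141). Leaving out BM replicate 2 (0.0595), or replicate 1 (0.0643) or 2 (0.0555) of BMT, ended the call, with a range from 6.87e-05 to 0.0643 over 13 alternatives. Igf1, the hormone itself, had 631, 633 and 357 CPM in the BM livers and 372, 310 and 342 CPM in the BMT livers, and the groups overlapped through BM replicate 3. Its log2 fold change was -0.50 ± 0.27 (edgeR adjusted p = 0.295), and 0.0153 without BM replicate 3 (range 0.0153 to 0.566). The binding proteins Igfbp1 (11.7 and 69.1 CPM) and Igfbp2 (273 and 385 CPM) were not called, with adjusted p of 0.129 and 0.265 by edgeR. Igfbp1 passed on the higher side in 4 of 13 alternatives: with the replicate block (0.00774), with all 18 libraries fitted together (0.000245), without the low-count filter (0.0135) and without BMT replicate 3 (0.0396), over a range of 0.000245 to 0.353.

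Among 6 other receptors of Mup control tested, which include those for glucocorticoids, thyroid hormone and oestrogen, Prlr, the prolactin receptor, fell and none rose (median -0.10). Its mean went from 275 ± 63.7 to 106 ± 15.4 CPM (SD, n = 3), a log2 fold change of -1.23 ± 0.22 (edgeR adjusted p = 0.0136). Leaving out BM replicate 2 (0.0571), or replicate 1 (0.0636) or 2 (0.0688) of BMT, ended the call, the last value being the highest of its 13 alternatives. Nr3c1, the glucocorticoid receptor, averaged 71.9 and 50.7 CPM (log2 fold change -0.34 ± 0.18), and Thrb, a thyroid hormone receptor, 28.5 and 22.1 CPM (-0.19 ± 0.16), both not called. Nr3c1 was called lower without BM replicate 3 (edgeR adjusted p = 0.026, range 0.026 to 0.539 over 13 alternatives).

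Of 18 hepatocyte transcription factors, Cebpd, an acute phase factor, rose from a range of 1.13 to 2.09 CPM to one of 4.95 to 8.22 CPM (log2 fold change 2.18 ± 0.31, edgeR adjusted p = 0.00559), none fell, and the median was 0.23. Hnf4a, a master factor of hepatocytes, averaged 637 ± 38.1 and 629 ± 93.3 CPM (SD, n = 3). Cebpa averaged 276 and 191 CPM, Onecut1 3.30 and 4.52, Cebpb 11.1 and 17.0, and Foxa3 69.2 and 96.5 CPM, and none of these 4 was called. Cebpb passed in 4 and Foxa3 in 5 of 13 alternatives, both on the higher side.

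Zhx2 is a repressor of fetal liver genes that also acts on Mup genes, and BALB/cJ mice carry a long-known hypomorphic Zhx2 allele. Zhx2 itself averaged 0.351 ± 0.070 CPM in the BM livers and 0.552 ± 0.048 CPM in the BMT livers (SD, n = 3) and was not called (edgeR adjusted p = 0.183). Of 4 tested genes under its control, 3 rose and none fell, with a median of 2.34. H19, an imprinted fetal RNA, rose from 95.9 ± 27.1 to 749 ± 54.9 CPM (edgeR adjusted p = 0.00122). Afp, the fetal relative of albumin, stood at 3.26, 3.50 and 3.68 CPM in the BM livers and 13.6, 12.7 and 10.0 CPM in the BMT livers (edgeR adjusted p = 0.00198). Gpc3, a surface proteoglycan of fetal liver, rose from 3.53 to 20.2 CPM on average (edgeR adjusted p = 0.00829). For these 3 genes every BMT liver lay above every BM liver, as for 11.2% of the genes tested, and each stayed called in the 13 alternatives.

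Genes that differ between the sexes in mouse liver, largely through the timing of growth hormone pulses, moved in both directions. Of 14 female-biased genes tested, 8 fell and 1 rose (median -2.21), against 3.35% lower and 7.46% higher among all genes. Those that fell were the cytochromes Cyp2b9, Cyp2b13 and Cyp3a44, the plasma protein gene A1bg, the thioesterase Acot3, Prlr, the oxidase Hao2 and the receptor Ntrk2. Hao2, for example, went from 131 ± 60.9 to 11.4 ± 5.08 CPM (SD, n = 3, log2 fold change -3.39 ± 0.47, edgeR adjusted p = 0.00523). Cyp3a44 went from 363 ± 99.9 to 49.9 ± 28.2 CPM (edgeR adjusted p = 0.0087), called except without BMT replicate 2 (0.0504, the highest of 13). Cyp17a1, a steroid hydroxylase, rose from 23.2 to 51.4 CPM (edgeR adjusted p = 0.00523). The count of 8 became 4 without BM replicate 2, 5 without BMT replicate 1 and 2 without BMT replicate 2. Of 8 male-biased genes tested, the group to which most Mup genes belong, 2 rose and 1 fell (median 0.14). The complement gene C6 rose from 4.72 to 10.5 CPM and the receptor Egfr from 35.3 to 106 CPM, with edgeR adjusted p of 0.0042 and 0.00518. Cyp7b1, an oxysterol hydroxylase, fell from 27.5 to 7.83 CPM (edgeR adjusted p = 0.0101), and not without BMT replicate 2 (0.0579, the highest of 13).

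Among other lipocalins more genes rose than fell. Of 9 tested, 5 rose and 1 fell (median 0.76). Lcn2, an iron-siderophore carrier of the acute phase, stood at 19.1, 84.5 and 305 CPM in the BM livers and 4479, 5390 and 5928 CPM in the BMT livers. The BM livers spread widely, yet all stayed below the BMT livers, as for 11.2% of the genes tested. The log2 fold change was 5.51 ± 0.90 (edgeR adjusted p = 0.00921, and 0.0502 without BM replicate 2, the highest of 13). The orosomucoids Orm1 (1225 to 7282 CPM) and Orm2 (277 to 4288 CPM), plasma carriers of the acute phase, also rose, with edgeR adjusted p of 0.00198 and 0.00326, as did Orm3 and Ambp. C8g, the lipocalin chain of complement component 8, fell from 273 ± 28.5 to 89.5 ± 17.4 CPM (SD, n = 3, edgeR adjusted p = 0.00464). Without BM replicate 2 the count of lipocalins that rose was 3, and without BM replicate 3 the count that fell was 2. Neutrophils, whose markers rose in the same livers, also make Lcn2, and their part in its level was not tested.

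Of 20 secreted hepatocyte proteins, 6 rose, 1 fell and 13 were not called (median 0.47). Albumin stood at 145271, 103798 and 84709 CPM in the BM livers and 105397, 87376 and 94053 CPM in the BMT livers, overlapping, with a log2 fold change of -0.05 ± 0.36 (edgeR adjusted p = 0.945). The protease inhibitor genes Serpina1a, Serpina1c and Serpina1d rose by 1.89 ± 0.30, 2.38 ± 0.43 and 1.67 ± 0.23 on the log2 scale (edgeR adjusted p of 0.0082, 0.0127 and 0.00523). They are near-identical copies themselves, so reads may be split among them. Serpina1c was not called without BM replicate 2 (0.0528) or BMT replicate 2 (0.0557, the highest of 13). Apoa1, Hpx and Fgb also rose, and the apolipoprotein gene Apoa2 fell. The count of 6 became 2 without BM replicate 2, 3 without BMT replicate 1 and 2 without BMT replicate 2, and the count that fell became 2 without BM replicate 3 and 0 without any of the 5 other livers.

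**Figure D3:**
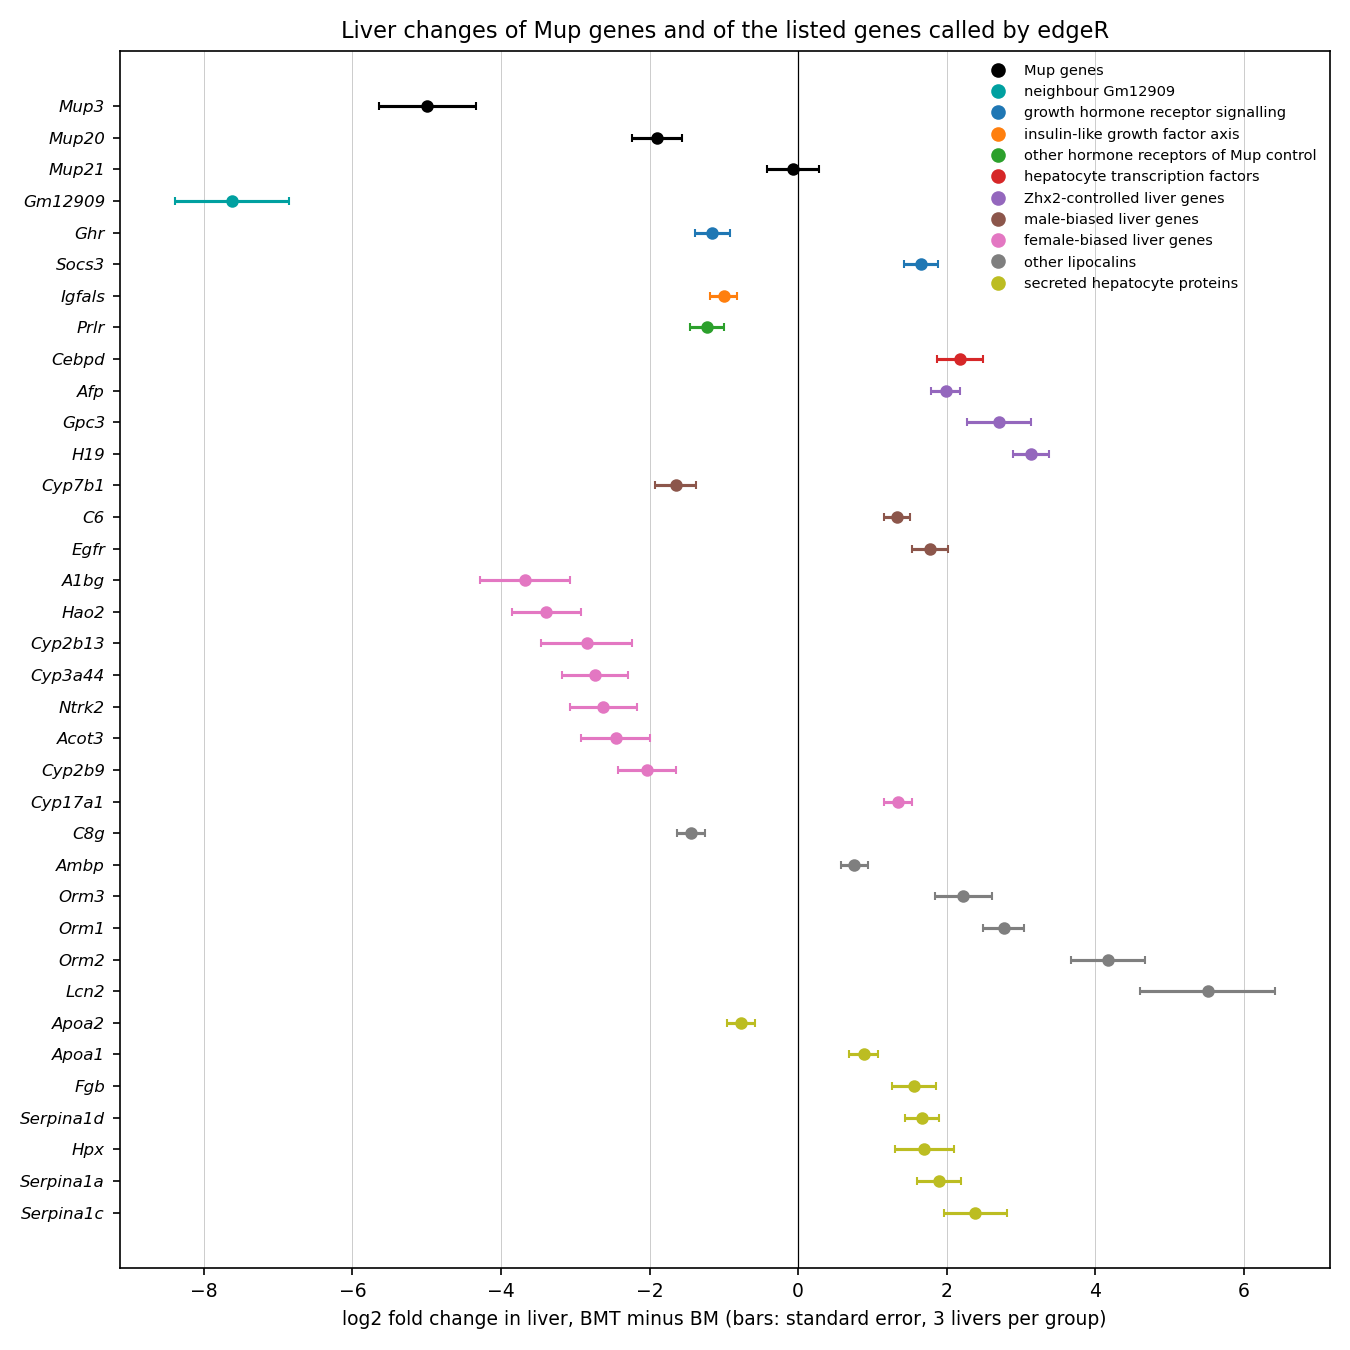
Log2 fold change in liver (BMT minus BM, 3 livers per group) with its standard error for Mup3, Mup20 and Mup21, which are shown as a description, for Gm12909, and for the listed genes called by edgeR, coloured by list. Mup3 (-4.99) lies below every listed gene, Mup21 (-0.07) is near 0, and Lcn2 (5.51) has the largest rise.

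Per 1000 albumin counts, the livers held 10.997, 5.94 and 6.49 Mup3 counts in BM and 0.334, 0.123 and 0.337 in BMT, groups that did not overlap on this scale either. These ratios describe the values that chose Mup3, and no test compared the genes.

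The genes whose liver pattern was most like that of the summed 5 genes were named by the highest Pearson correlation of log2(CPM + 1) over the 6 livers, among 9259 genes with a mean of at least 5 CPM. They were Kif5b (0.998), a kinesin motor, Fgfr2 (0.998), a growth factor receptor, Nacc2 (0.997), a transcriptional repressor, Suds3 (0.997), a subunit of the Sin3 corepressor, and Nqo2 (0.996), a quinone reductase. These 6 points form 2 separate treatment groups, so each correlation mainly describes a difference between those groups. Their changes were far smaller than that of Mup3. With TMM scaling edgeR called Fgfr2 (adjusted p = 0.0116) and Nqo2 (0.00559) lower, but not Kif5b (0.318), Nacc2 (0.123) or Suds3 (0.219). Fgfr2 was not called without BMT replicate 2 (0.0646), and Nacc2 (0.0284) and Suds3 (0.0415) passed on library sizes alone. Nqo2 stood at 118, 92.9 and 89.9 CPM in the BM livers and 32.4, 23.0 and 36.6 CPM in the BMT livers, and Kif5b at 52.5, 48.9 and 47.8 against 39.1, 34.8 and 38.4 CPM.

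In the intestinal epithelium the 5 genes were at or near 0 in 11 of the 12 libraries. Mup1 and Mup7 had 0 counts in all 12, no BM epithelial library had a count of any of the 5 genes, and the 11 libraries together held 1 Mup3 count, 0 Mup20 counts and 9 Mup21 counts. None of the 5 passed the low-count filter in code LI or code SI, where edgeR called 41.4% and 23.4% of the genes tested. The mean differences between liver and epithelium over the 6 mice, on log2(CPM + 1), were 7.12 ± 2.91 for Mup3, 2.15 ± 0.89 for Mup20 and 0.84 ± 0.19 for Mup21 (SD) against code LI. Against code SI they were 6.79 ± 3.28, 2.14 ± 0.90 and 0.81 ± 0.24. Each was higher in liver in 6 of 6 mice, given without a test because the genes were chosen by their liver counts.

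The remaining epithelial library, code SI BMT replicate 3 (mouse 10), stood apart. It held 72 Mup3 counts (3.09 CPM) and 1 Mup20 count, together with 2213 albumin counts, while the 11 others held 0 to 39 albumin counts each. Its Mup3 level per 1000 albumin counts was 32.5, with a 95% counting interval of 25.4 to 41.1. The liver of the same mouse had 0.337 (0.312 to 0.364), and the highest BM liver 10.997 (10.9 to 11.1). The liver transcripts in this epithelial library carried more Mup3 relative to albumin than any of the 6 livers. Without this library Mup3 had 0 counts in all 5 other code SI libraries, and the origin of its liver transcripts was not tested.

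**Figure D4:**
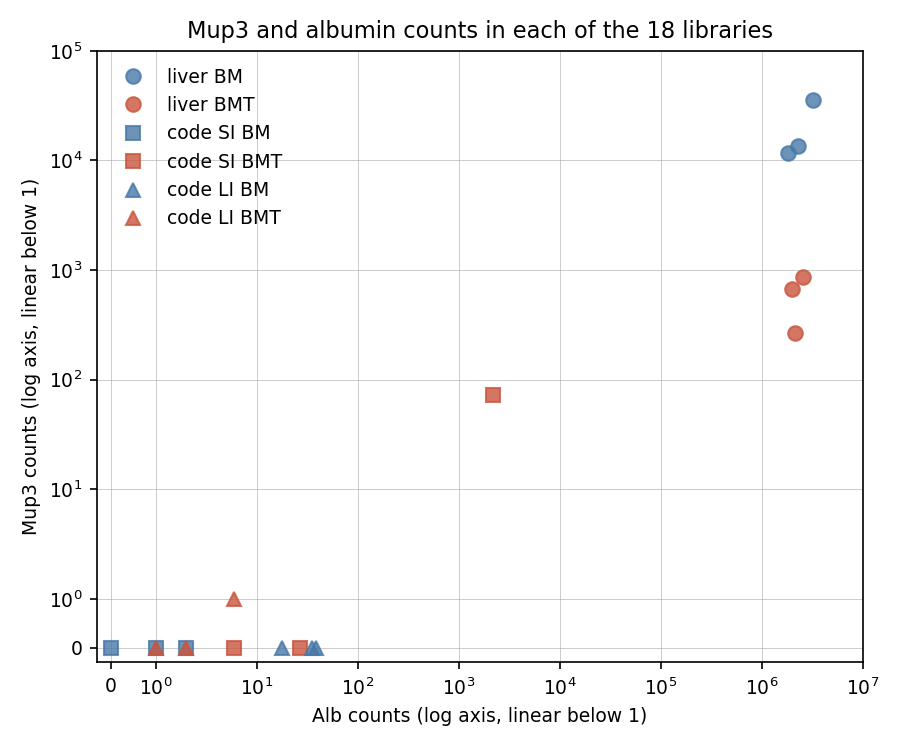
Mup3 counts against albumin counts in the 18 libraries, both on log axes that are linear below 1, with circles for liver, squares for code SI and triangles for code LI, blue for BM and red for BMT. The BM livers lie above the BMT livers at like albumin counts, and 1 code SI BMT library, with 72 Mup3 and 2213 albumin counts, lies apart from the other epithelial libraries.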

How the data were processed

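Poly(A)-selected, stranded, paired-end RNA libraries were aligned and counted by the authors with STAR 2.7.0e and featureCounts 1.6.3 on GRCm38.p5, per the submitters' processing notes. The deposited values are raw counts per gene, and the sources used here do not give the counting options. The members and gene lists were chosen with earlier results of these data known. Identifiers were matched to GENCODE M21 (53274 of 53379, with 0.00257% of counts in unmatched rows). CPM used the total count of each library. Each tissue was fitted with edgeR 4.0.16 (R 4.3.3): filterByExpr, TMM, the quasi-likelihood test and Benjamini-Hochberg adjustment over all genes tested. The standard errors given with edgeR fold changes were worked back from this test, as the absolute log2 fold change over the square root of its F statistic. DESeq2 1.42.0, other scalings and filters, 1 sequencing lane, 1 fit over all 18 libraries and leaving out each replicate were alternatives. In the libraries' column names, 4 of 18 carry lane 1 and the others lane 2. Tested on simulated liver counts over 14134 genes, the fit recovered 1.49%, 34.3% and 95.5% of 1.5-, 2- and 4-fold changes. These were 67, 67 and 66 changed genes, and the fit also made 11 false calls among the unchanged genes.

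The named genes were fixed by rule: the 5 members, other Mup genes averaging at least 1 CPM in liver, the 3 smallest adjusted p in each list, 15 preset genes and the 5 genes most like the summed members. Others were named after their values were seen: Gm12909, Mup-ps22, the genes completing a list's calls and the hepatocyte genes of 1 epithelial library. No source says that replicates came from separate cages or experiments, so the p-values reflect only how these libraries spread.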

Additional observations from a re-analysis of the deposited data

How the results depend on the processing

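The liver fold changes of Mup3 and Mup20 kept their direction under all 13 alternatives, from -5.36 to -4.29 and from -2.19 to -1.66, while that of Mup21 lay from -0.33 to 0.15. Over all liver genes, the 1055 higher calls became 1624 when all 18 libraries were fitted together and 459 to 1554 when each liver was left out. The 473 lower calls became 768 with DESeq2, 1183 on library sizes alone and 110 to 1061 without each liver. The cause was not tested. The 13 lower calls on the lists became 20 without the low-count filter, and 3 to 20 without each liver, and the 19 higher calls 14 to 22. Without the low-count filter Mup3 was called in code SI (1 of the 5 genes, log2 fold change 7.59 ± 1.02, adjusted p = 5.17e-12 by edgeR), resting on 1 library, and the pseudogene Mup-ps22 in liver (-5.82 ± 1.43, adjusted p = 0.0161).

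The numbers 1 to 3 in the titles recur in both treatments, but same-numbered livers did not all deviate together (correlations 0.24, -0.04 and 0.42), so the numbers were not taken as pairs. With the replicate block the liver values were -4.98 for Mup3, -1.84 for Mup20 and -0.03 for Mup21, and 1125 genes were higher and 505 lower.

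Depth limits Mup7 and Mup1, since 3 counts are 0.117 to 0.159 CPM, and shared sequence limits all copies with few unique windows.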

Other observations

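Other hepatocyte transcripts were present in the epithelial library that held Mup3, code SI BMT replicate 3. It had 211 counts of Ahsg (a fetuin), 88 of Cyp2e1 (a hepatocyte cytochrome), 65 of Fgb (a fibrinogen chain) and 9 of Serpina1c. The 11 other epithelial libraries had at most 1, 2, 2 and 1 counts of these genes in any one library. Apoh (apolipoprotein H) had 266 counts against 1 to 99 in the others. Other genes of liver output lay within the range of the 11 other libraries: Ttr at 161 counts (13 to 483), Tat at 85 (48 to 746), Saa1 at 1183 (90 to 12460) and Saa2 at 31 (6 to 320). Gm12909, the neighbour of Mup3, had 0 counts there. The 3 BM livers held 492 Gm12909 counts beside 60662 of Mup3, so a 0 beside 72 Mup3 counts says little. These genes were chosen after the values of the library were seen.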
